A study of Saccharomyces cerevisiae with 8 samples.

Results

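The genes described here are the 31 genes of sulfate assimilation and methionine metabolism in budding yeast, out of 6256 genes measured. They were chosen by name, and all 31 had a probe, with MET5 listed under its older name ECM17. Transcript levels were compared between 4 cultures of the pressure-sensitive mutant strain a924E1 and 4 cultures of its parent strain KA31a. Both strains were grown for 48 h at 30 °C in YPD, a rich medium with 1.0% yeast extract, 2.0% peptone and 2.0% glucose, and the labels name no pressure treatment and no lesion of the mutant. According to the design text the samples were biologically independent, and each was hybridised to 1 one-colour array. The mutant arrays carry the numbers 1, 3, 5 and 7 and the parent arrays the numbers 2, 4, 6 and 8.

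Yeast takes up sulfate, activates it with ATP, reduces it to sulfite and then to sulfide, and joins the sulfide to a carbon chain made from homoserine. The resulting homocysteine is methylated to methionine, which in turn gives S-adenosylmethionine, the methyl donor of the cell, and the transsulfuration enzymes link homocysteine with cysteine in both directions. The activator Met4, brought to DNA by Cbf1, Met31 and Met32, switches the pathway on when sulfur compounds are scarce. The F-box protein Met30 directs a ubiquitin ligase of the SCF type to Met4 and so restrains it. Rich medium such as YPD supplies methionine and cysteine.

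MET30 was 2.86-fold lower in the mutant, and it was the only 1 of the 31 genes that passed the test with a change of at least 2-fold. Of the enzymes, MET22, MET8 and CYS4 fell and MET10, MET17 and CYS3 rose, and of the permeases MUP1 and SAM3 fell. In all, 3 genes rose, 6 fell and 22 did not pass. The fit (limma, Benjamini-Hochberg adjusted p under 0.05 over all 6256 probes) called 26.6% of all probes, 12.7% higher and 14% lower. The 9 called genes of 31 (29.0%) are thus a share near that of all probes, and the same holds for the 9 genes (29.0%) whose 4 mutant and 4 parent values did not overlap, against 29.9% of all probes. The median log2 difference of the 31 genes was -0.08, against 0.05 for all probes. At least 2-fold lower calls made up 2.91% of all probes.

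**Figure D1:**
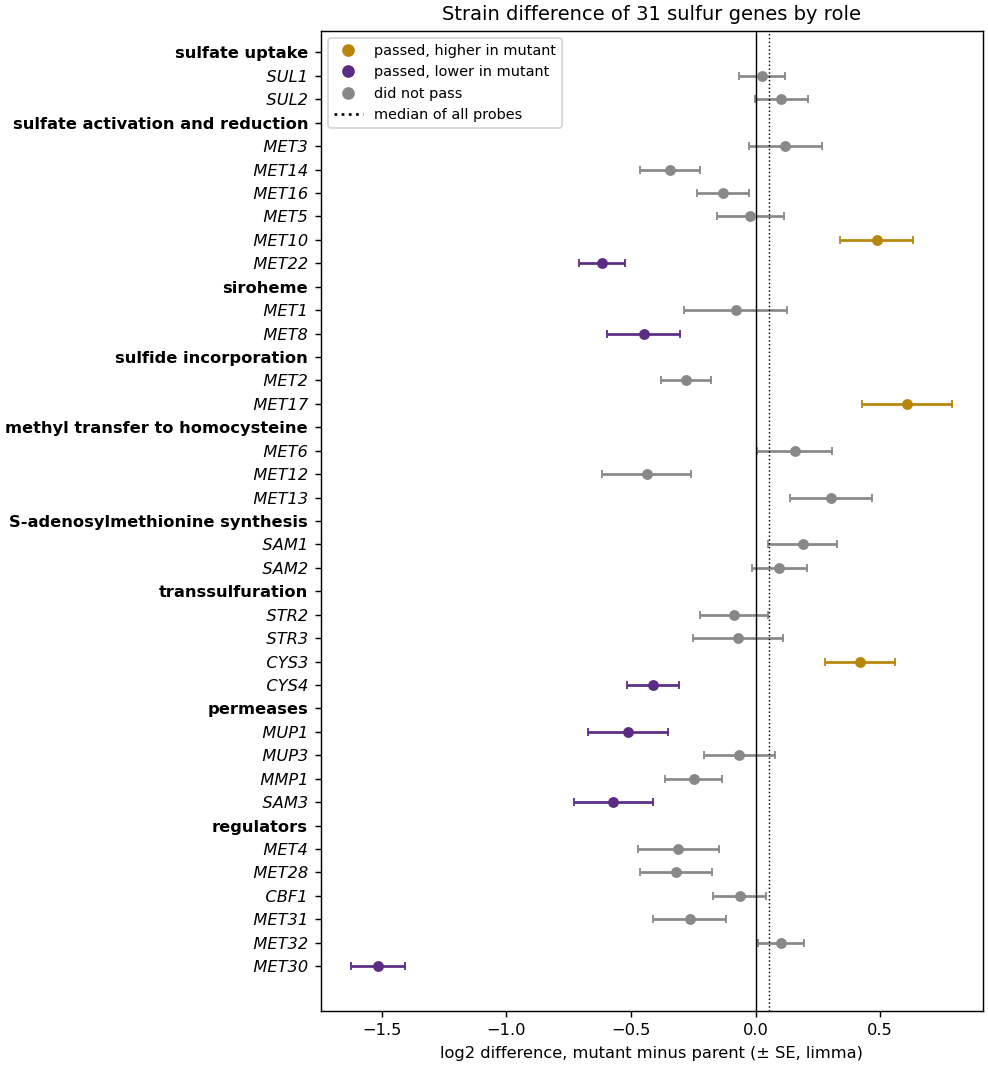
Log2 difference between mutant and parent (horizontal axis, mean ± SE from limma, 4 arrays per strain) for the 31 genes, grouped by role; colours mark the genes that passed the test and the dotted line is the median of all probes at 0.05. MET30, at -1.51, lies far to the left of the other genes, which lie between -0.62 and 0.61. All 4 permeases and both siroheme genes lie below 0, with 2 of the 4 and 1 of the 2 called lower, beside 14% of all probes. These lists are short, and their shares were not tested. The points of MUP3 and MMP1 rest on mutant spots not above background.

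Levels below are log2 normalized spot intensities, in which 1 unit is a 2-fold difference within a gene, and levels of different genes are not comparable. The mutant arrays were dimmer than the parent arrays. With the local background subtracted, the median spot gave 82, 112, 16 and 5 intensity units on mutants 1, 3, 5 and 7. On parents 2, 4, 6 and 8 it gave 163, 182, 54 and 15 units. A probe counted as above background where neither of its spots fell below 3 in signal-to-noise. Of the 31 genes, 20, 23, 6 and 1 met this in the mutant cultures, in the same order, and 30, 30, 22 and 7 in the parent cultures. CYS4 alone of the 31 was above background on all 8 arrays, and SUL1 on none. Mutants 5 and 7 and parent 8 were scanned at a gain of 700 and the other arrays at 600. Gain 700 thus sets 2 mutant arrays against 1 parent array, so its differences are given below as values with no test. The slide had a column with the mutant hybridisations and a column with the parent ones, which makes column and strain inseparable: their effects cannot be told apart. Any part of signal strength in the differences was not tested beyond the values within each gain given below. Mutants 1 and 3 were closer to each other (SD of the log2 difference 0.169 over 582 probes above background on all arrays) than other mutant pairs (0.235 to 0.537), and parents 6 and 8 (0.203) than other parent pairs (0.285 to 0.516). By Pearson correlation parents 4 and 6 were closer (0.989) than parents 6 and 8 (0.985), so the closest parent pair depends on the measure. The averaging of closest arrays below follows the SD. If a pair shared RNA, 4 per strain overstates the number of samples. The gain 600 tests below set mutants 1 and 3 against parents 2, 4 and 6. Their mutant spread comes from the closest mutant pair alone, so their adjusted p may be too small. Precision is limited by having 4 arrays per strain, and in whole cultures less RNA per cell and fewer cells of a type cannot be told apart.

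Among the regulators, MET30 (YIL046W) stood at 7.42, 7.54, 7.75 and 7.5 on mutants 1, 3, 5 and 7. On parents 2, 4, 6 and 8 it stood at 9.10, 9.20, 9.04 and 8.92. The groups were wide apart, with the highest mutant array more than 1 log2 unit below the lowest parent array. In the scanner's own units, before normalization, the net signal was 177.5, 282.5, 64.0 and 11.5 in the mutant and 1260, 1564.5, 477 and 135.5 in the parent. The log2 difference was -1.51 ± 0.11 (SE, n = 4 per strain, limma adjusted p = 4.4e-06), with a 95% confidence interval from -1.76 to -1.27, and its p-value was the 29th smallest of 6256. Paired by slide row, which holds 1 mutant and 1 parent array, the differences were -1.68, -1.67, -1.29 and -1.42. The difference was -1.63 on the arrays of gain 600 (adjusted p = 0.0009) and -1.30 on those of gain 700. MET30 was above background on 4 parent arrays but on mutants 1 and 3 only.

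The Met4 activator genes did not pass. MET4 itself differed by -0.31 ± 0.16 (limma adjusted p = 0.192), and the strains overlapped, with 7.01, 6.91, 6.70 and 7.35 in the mutant and 7.6, 7.28, 7.35 and 6.98 in the parent. In slide rows 1 to 3 the mutant array was lower, and in row 4, of mutant 7 and parent 8, it was higher by 0.37. On the arrays of gain 600 the MET4 difference was -0.45 and passed (adjusted p = 0.0376), with mutants 1 and 3 as the only mutant arrays. MET28, which stabilises the activator on DNA, differed by -0.32 (adjusted p = 0.135), with no overlap of the strains. MET28 was above background on mutants 1 and 3 and on parents 2, 4 and 6 only. Its net signals on mutants 5 and 7 were 12.5 and 0 units, so the lack of overlap rests in part on dim spots. MET31 and MET32 encode related zinc finger proteins and differed by -0.27 (adjusted p = 0.222) and 0.10 (adjusted p = 0.466). CBF1, a helix-loop-helix protein that also binds centromeres, differed by -0.06, with a 95% confidence interval from -0.30 to 0.17. CBF1 and MET32 were above background on parents 2 and 4 only, so their values come mostly from dim spots.

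Sulfate uptake gave no called gene. SUL1 and SUL2, the high-affinity sulfate permeases, differed by 0.03 and 0.10 (limma adjusted p = 0.863 and 0.521). SUL1 was not well above background on any array. SUL2 was above background on mutant 3 and on parents 2 and 4.

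Of the 6 genes that activate and reduce sulfate, 1 rose, 1 fell and 4 did not pass. MET10, a subunit of sulfite reductase, stood at 7.41, 7.44, 7.65 and 7.78 in the mutant and at 6.68, 7.18, 7.28 and 7.18 in the parent. All mutant arrays lay above all parent arrays, and parent 2 was the lowest. The 2 spots of MET10 on parent 2 disagreed, with net signals of 60 and 223 units, so that low level is uncertain. MET10 was above background on mutants 1 and 3 and on parents 2, 4 and 6 only. Before normalization its mean net signals were 174, 248.5, 51 and 17 units in the mutant and 141.5, 267.5, 93 and 24 in the parent. In these units the mutant array was higher in slide row 1 and lower in rows 2, 3 and 4. The lack of overlap thus rests in part on dim spots and on the normalization. The log2 difference was 0.49 ± 0.15 (SE, limma adjusted p = 0.0301), 0.37 within gain 600 (adjusted p = 0.202) and 0.54 within gain 700. MET5, the other subunit of the same enzyme, differed by -0.02, with a 95% confidence interval from -0.32 to 0.28.

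MET22 (YOL064C), the phosphatase that removes the adenosine bisphosphate left by sulfate reduction and a known target of lithium and sodium, fell. Its levels were 6.11, 6.0, 5.91 and 5.97 in the mutant and 6.62, 6.57, 6.61 and 6.66 in the parent. All mutant arrays lay below all parent arrays, and the fitted difference was -0.62 ± 0.09 (limma adjusted p = 0.00068). Since the mutant values are those of spots near background, its size depends on the background offset and was -1.03 with an offset of 16. It was -0.54 within gain 600 (adjusted p = 0.0049) and -0.72 within gain 700. MET22 was not well above background on any mutant array and was above it on parents 2, 4 and 6, with net signals of 17, 15, 0.5 and 0 units in the mutant and 119, 123.5, 38.0 and 10.5 in the parent. The parent's mean level did not exceed the lowest level counted as above background on the mutant arrays, so no fold is given. MET14, adenylylsulfate kinase, differed by -0.34 (adjusted p = 0.0556), lower in the mutant in all 4 slide rows. With slide row as a block MET14 passed (adjusted p = 0.0313), as it did in 4 other settings. MET3, ATP sulfurylase, and MET16, which reduces the activated sulfate, differed by 0.12 and -0.13 (adjusted p = 0.597 and 0.393). MET3 and MET16 were each above background on 2 parent arrays.

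Siroheme, the iron cofactor of sulfite reductase, is made by Met1 and Met8. MET8 stood at 5.98, 6.1, 6.65 and 6.20 in the mutant and at 6.68, 6.53, 6.67 and 6.85 in the parent. The strains overlapped through mutant 5 alone, which lay above parent 4. The difference was -0.45 ± 0.15 (limma adjusted p = 0.0399), -0.58 within gain 600 (adjusted p = 0.0067) and -0.43 within gain 700. Like MET22, MET8 was not well above background on any mutant array, no fold is given, and the size moved with the background offset, to -0.74 with an offset of 16. The MET8 call held without mutant 5 and was lost without any other single array (adjusted p from 0.0551 to 0.113). MET1 did not pass (difference -0.08, adjusted p = 0.806). It stood between 8.37 and 8.52 on the mutant arrays and at 7.77, 8.84, 8.66 and 8.83 on parents 2, 4, 6 and 8, so parent 2 lay below all mutant arrays and the other parent arrays above them. Without parent 2 the MET1 difference was -0.33 (adjusted p = 0.0484).

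MET2 and MET17 bring the carbon chain and sulfide together. MET17 (also MET15), the enzyme that joins sulfide to O-acetylhomoserine, stood at 8.21, 8.29, 8.69 and 8.03 in the mutant and at 7.26, 7.86, 8.04 and 7.63 in the parent. Mutant 7 and parent 6 were nearly level, and the other mutant arrays lay above all parent arrays. The 2 spots of MET17 disagreed on parent 2, the lowest array, with net signals of 131 and 448 units. They also disagreed on mutant 7 (37 and 11) and parent 8 (68 and 21), where MET17 was not above background. Before normalization its mean net signals were 413, 611.5, 153 and 24 units in the mutant and 289.5, 514.5, 197 and 44.5 in the parent. In these units the mutant array was higher in slide rows 1 and 2 and lower in rows 3 and 4. In rows 3 and 4 the rise thus rests on the normalization. The difference was 0.61 ± 0.18 (SE, limma adjusted p = 0.0285), or 1.52-fold, with 0.53 within gain 600 (adjusted p = 0.155) and 0.73 within gain 700. MET2, homoserine acetyltransferase, differed by -0.28 (adjusted p = 0.0595), with all mutant arrays, between 6.59 and 6.71, below all parent arrays, between 6.78 and 7.05.

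The genes for methyl transfer to homocysteine and for S-adenosylmethionine synthesis gave no call. MET6, the methionine synthase that works without cobalamin, differed by 0.16 ± 0.15 (limma adjusted p = 0.489). MET12 and MET13 encode the methylenetetrahydrofolate reductases and differed by -0.44 (adjusted p = 0.094) and 0.30 (adjusted p = 0.209). MET13 stood at 6.57, 6.61, 6.87 and 5.97 in the mutant and between 6.14 and 6.26 in the parent, with mutant 7 alone below the parent arrays. Without mutant 7 the MET13 difference was 0.48 (adjusted p = 0.00697), and MET13 passed in 6 other settings, among them without background correction (0.61, adjusted p = 0.0119) and with the deposited value table (0.54, adjusted p = 0.0172). SAM1 and SAM2, the S-adenosylmethionine synthetases, differed by 0.19 and 0.09 (adjusted p = 0.362 and 0.574), with 95% confidence intervals from -0.12 to 0.49 and from -0.15 to 0.34.

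**Figure D2:**
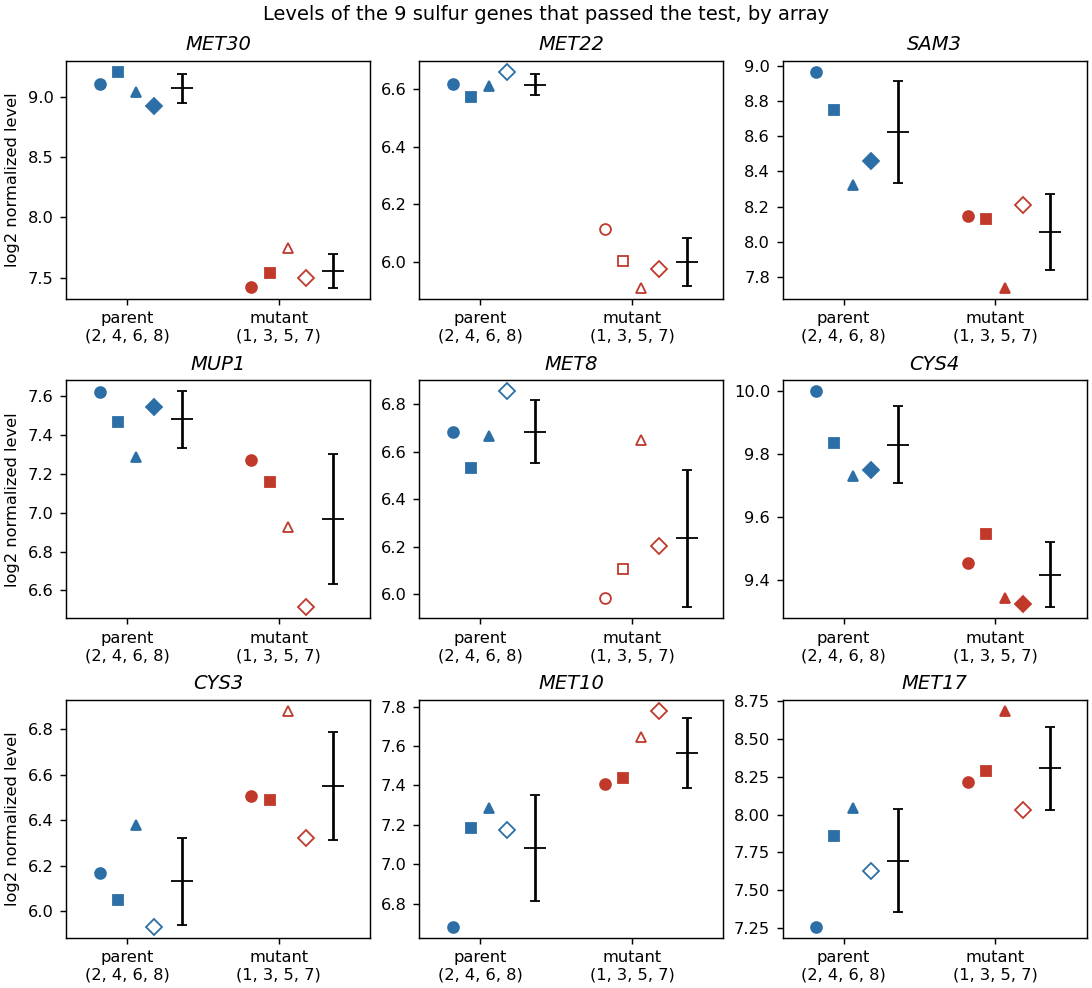
Log2 normalized level on each array (vertical axis, its range set for each gene) of the 9 genes that passed, for parent arrays 2, 4, 6 and 8 (blue) and mutant arrays 1, 3, 5 and 7 (red), drawn as circle, square, triangle and diamond in that order. Open symbols are probes not above background, and bars give the mean ± SD of 4 arrays. The strains do not overlap for MET30, MET22, SAM3, MUP1, CYS4 and MET10, and they do for MET8, CYS3 and MET17.

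In transsulfuration, CYS3 rose and CYS4 fell, and STR2 and STR3 did not pass. CYS4 (YGR155W), cystathionine beta-synthase, which condenses homocysteine with serine, stood at 9.45, 9.55, 9.34 and 9.32 in the mutant and at 10.00, 9.84, 9.73 and 9.75 in the parent. All mutant arrays lay below all parent arrays. The difference was -0.41 ± 0.10 (SE, limma adjusted p = 0.0131), or 1.33-fold lower, with -0.36 within gain 600 (adjusted p = 0.0448) and -0.42 within gain 700. CYS3, cystathionine gamma-lyase, which releases cysteine from the product of Cys4, stood at 6.51, 6.49, 6.88 and 6.32 in the mutant and at 6.17, 6.05, 6.38 and 5.93 in the parent. The strains overlapped, since parent 6 lay above mutant 7, although in each slide row the mutant array was higher, by 0.34, 0.44, 0.50 and 0.39. CYS3 was above background on mutants 1 and 3 and on parents 2, 4 and 6 only. Before normalization its net signals were 44.5, 58.5, 18.5 and 1.5 units in the mutant and 48.5, 37.5, 25.5 and 1 in the parent. The row differences thus rest on dim spots and on the normalization. The CYS3 difference was 0.42 ± 0.14 (adjusted p = 0.048), 0.30 within gain 600 (adjusted p = 0.094) and 0.67 within gain 700. STR2 and STR3, cystathionine gamma-synthase and beta-lyase of the route from cysteine to homocysteine, differed by -0.09 and -0.07 (adjusted p = 0.681 and 0.806).

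The call of all 3 genes that rose depended on the settings. With the closest arrays averaged and with scanner gain as a block, MET10, MET17 and CYS3 did not pass, at adjusted p of 0.0513, 0.0606 and 0.0928 in the first case and 0.0501, 0.0526 and 0.0616 in the second. MET10 also lost its call without mutant 5 or 7 or parent 2 or 4, MET17 without mutant 3 or 5 or parent 2 or 8, and CYS3 without any single array other than mutant 7 or parent 6. Each kept its direction under all 22 alternatives that gave it a value.

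Of the 4 permeases, 2 fell and 2 did not pass. SAM3 (YPL274W), the permease for S-adenosylmethionine, stood at 8.14, 8.13, 7.74 and 8.21 in the mutant and at 8.97, 8.75, 8.32 and 8.46 in the parent, with no overlap. The difference was -0.57 ± 0.16 (limma adjusted p = 0.0199), or 1.49-fold lower, with -0.55 within gain 600 (adjusted p = 0.089) and -0.49 within gain 700. MUP1, the high-affinity methionine permease, stood at 7.27, 7.16, 6.93 and 6.51 in the mutant and at 7.62, 7.47, 7.29 and 7.55 in the parent. The groups came close, with mutant 1 just below parent 6, and mutant 7 was the lowest. MUP1 was above background on all 4 parent arrays but on mutants 1 and 3 only. On mutants 5 and 7 its net signals were 18 and 2.5 units, so its gain 700 value rests on mutant spots near background. The MUP1 difference was -0.51 ± 0.16 (adjusted p = 0.0343), but -0.24 within gain 600 (adjusted p = 0.171) against -0.83 within gain 700. MUP1 did not pass without mutant 5 or 7 or without parent 2, 4 or 8 (adjusted p from 0.0504 to 0.0841), and SAM3 did not without parent 2 or 4 (adjusted p = 0.0506 and 0.0628). MUP3, a low-affinity methionine permease, and MMP1, the S-methylmethionine permease, differed by -0.07 and -0.25 (adjusted p = 0.774 and 0.143), and neither was well above background on any mutant array. MUP3 and MMP1 turned positive, at 0.093 and 0.11, with 75th percentile scaling.

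**Figure D3:**
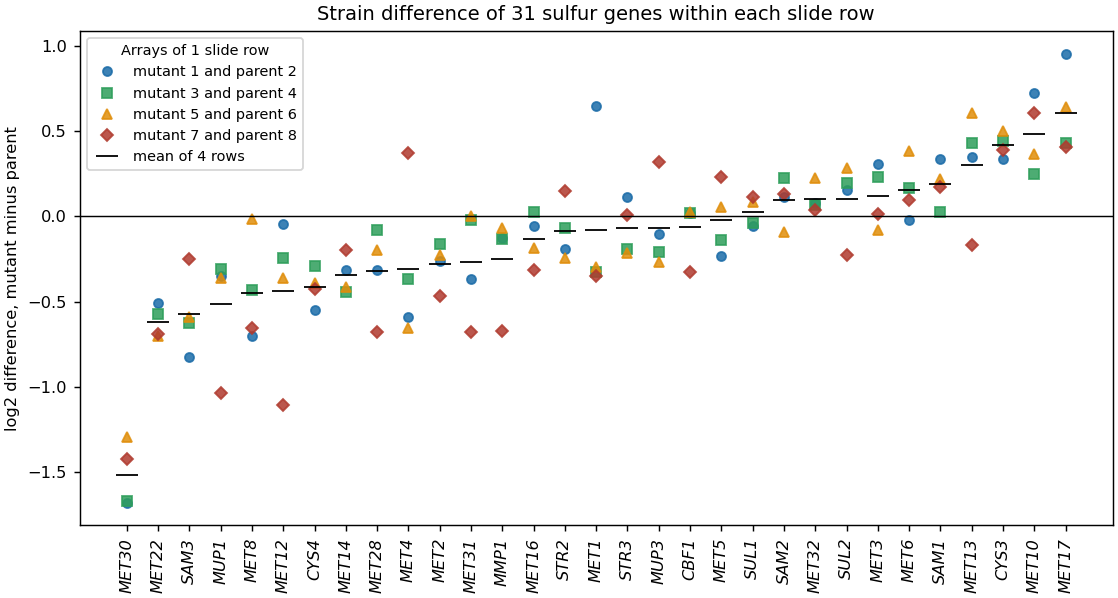
Log2 difference (vertical axis) between the mutant and the parent array of each of the 4 slide rows for the 31 genes, ordered by their mean difference (black dash). MET30 lies between -1.68 and -1.29 in every row, while the row of mutant 7 and parent 8 (red diamonds) often stands apart from the other rows, as for MUP1 at -1.03, MET12 at -1.10 and MET4 at 0.37.

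Within slide rows, 11 of the 31 genes (35.5%) were lower on the mutant array in all 4 rows and 5 (16.1%) were higher, against 21.2% and 26.3% of all probes. The 5 were MET10, MET17, CYS3, SAM1 and MET32. Mutant 7 and parent 8 were the dimmest array of their strain. The row medians over the 31 genes were -0.06, -0.08, -0.09 and -0.20.

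Pairs of related genes were compared within arrays, over 5 pairs. The MET12 minus MET13 difference was 1.98 ± 0.11 (SD, n = 4) in the mutant and 2.72 ± 0.30 in the parent, so that it was lower by -0.74 in the mutant, and the values of the strains did not overlap. For MET31 minus MET32 the values were 0.62 ± 0.26 and 0.98 ± 0.17, a change of -0.37, also without overlap. Part of both contrasts rests on dim spots. MET32 was above background on parents 2 and 4 only, and MET13 on mutants 1 and 3 and parents 2, 4 and 6. Both pairs reached 0.0286 in the two-sided exact permutation test, the smallest p that 4 against 4 arrays allow, and neither passed after adjustment over the 5 pairs (adjusted exact p = 0.0714). A pair could have passed only if more of the 5 had reached that smallest p, so the adjusted result says little. The pairs SAM1 and SAM2, MMP1 and SAM3, and SUL1 and SUL2 changed by 0.09, 0.32 and -0.08 (adjusted exact p = 0.657, 0.381 and 0.500). Probes of such related genes may bind each other's transcripts, which would make the members look more alike.

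Beyond the 31 genes, 54 other genes were listed and measured. The list holds genes of sulfur, methionine, folate and glutathione metabolism. It also holds amino acid permeases, the activator GCN4, partners of Met30 in its ligase, aminotransferases and PDC6. Its shares are therefore not those of sulfur metabolism alone. Of the 54, 3 rose, 8 fell and 43 did not pass, which is 5.56% higher and 14.8% lower, again beside 12.7% and 14% of all probes. None of the 5 genes listed with the methionine cycle (MHT1, SAM4, SAH1, ADO1 and the folate gene MET7) passed, with log2 differences between -0.19 and 0.11. Nor did any of the 7 genes for uptake or release of other sulfur compounds, or the 3 of homoserine supply.

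Of the 7 one-carbon and folate genes listed, 3 fell (42.9%), beside 14% of all probes called lower. The list is short, and its share was not tested. SHM2, the cytosolic serine hydroxymethyltransferase that loads folate with carbon from serine, stood at 7.70, 7.53, 7.39 and 7.57 in the mutant and at 8.87, 8.23, 8.02 and 8.35 in the parent, a difference of -0.82 ± 0.17 (limma adjusted p = 0.00369). SHM1, its mitochondrial counterpart, differed by -0.58 (adjusted p = 0.0136) and MTD1, a methylenetetrahydrofolate dehydrogenase, by -0.66 (adjusted p = 0.0013). Of the 7 genes, 4 did not overlap between strains, these 3 and FAU1, beside 29.9% of all probes. ADE3, MIS1, FAU1 and FOL1 of the same list did not pass, with differences between -0.22 and 0.20.

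Methionine salvage rebuilds methionine from the methylthioadenosine left by polyamine synthesis. Of the 12 salvage and polyamine genes measured, 3 fell (25%), beside 14% of all probes called lower. This list too is short, and its share was not tested. MDE1 and MRI1, a dehydratase and an isomerase of the route, differed by -0.69 (limma adjusted p = 0.00154) and -0.51 (adjusted p = 0.018). BAT1, a mitochondrial aminotransferase of branched-chain amino acids that can also act in the last salvage step, differed by -2.24 (adjusted p = 2.34e-06). MEU1, UTR4 and ADI1 of the same route differed by -0.23, 0.08 and 0.06 and did not pass. ARO8, ARO9 and BAT2, the other aminotransferases of the last step, differed by -0.11, 0.33 and 0.21 and did not pass either.

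**Figure D4:**
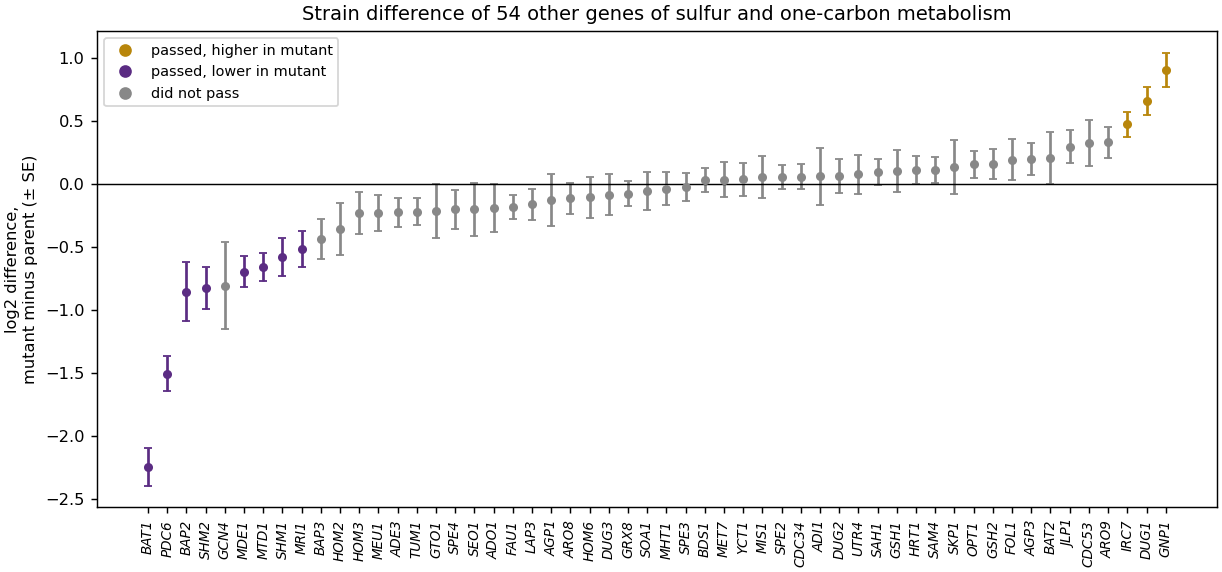
Log2 difference between mutant and parent (vertical axis, mean ± SE, limma, 4 arrays per strain) of the 54 other genes listed, ordered by size. BAT1 lies at -2.24, 3 genes from 0.48 to 0.91 passed as higher, and 43 genes did not pass. The points of PDC6 and IRC7 are fitted differences and not bounds. That of PDC6 rests on mutant spots not above background, and that of IRC7, at 0.48, on such parent spots. Their folds are therefore stated as bounds, at least 1.84-fold lower for PDC6 and at least 1.16-fold higher for IRC7. IRC7 was above background on only 2 mutant arrays, so its bound is not firm.

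The remaining calls were in different functions. PDC6, a minor pyruvate decarboxylase known to be induced when sulfur is limiting, was at least 1.84-fold lower and not well above background in any mutant culture (limma adjusted p = 2.85e-05). The amino acid permease genes BAP2 and GNP1 moved in opposite directions, by -0.85 (adjusted p = 0.0199) and 0.91 (adjusted p = 0.000623), and AGP1 and BAP3 did not pass. DUG1, a dipeptidase of glutathione breakdown, stood at 10.42, 10.34, 10.21 and 10.29 in the mutant and at 9.65, 9.43, 9.69 and 9.85 in the parent, a difference of 0.66 ± 0.11 (adjusted p = 0.0013). DUG2, DUG3, GSH1 and GSH2, the other genes of glutathione breakdown and synthesis measured, did not pass. IRC7, a cysteine beta-lyase, was not well above background on any parent array and was at least 1.16-fold higher (adjusted p = 0.00416). It was above background on only 2 mutant arrays, so that bound rests in part on dim mutant spots and is not firm.

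The partners of Met30 in its ubiquitin ligase did not pass. SKP1, CDC53, HRT1 and CDC34, which encode the adaptor, the cullin, the RING subunit and the ubiquitin-conjugating enzyme, differed by 0.14, 0.33, 0.11 and 0.06 (limma adjusted p = 0.677, 0.218, 0.509 and 0.702). GCN4, the general activator of amino acid synthesis genes, differed by -0.80 but with a large spread (SE 0.35, adjusted p = 0.117). Its level on mutant 5, at 8.12, was the lowest of the 8 arrays, and on the other mutant arrays it lay between 9.33 and 9.90.

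**Figure D5:**
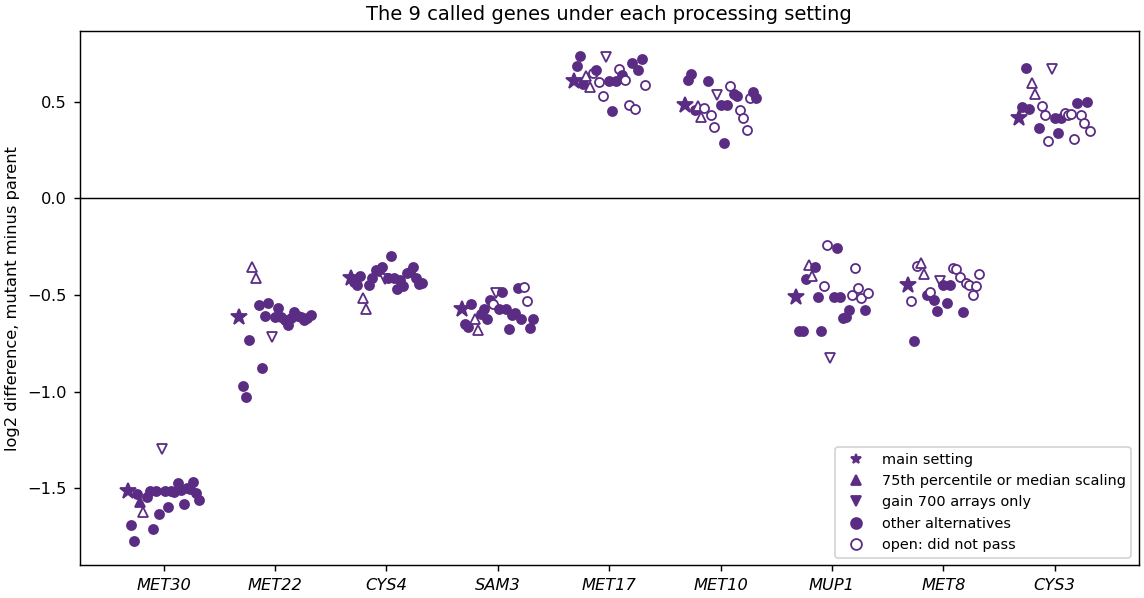
Log2 difference (vertical axis) of the 9 called genes in the main setting (star) and under each alternative processing setting, with open symbols where the adjusted p was 0.05 or more. No symbol crosses 0 for any of the 9 genes, MET30 stays between -1.77 and -1.30, and the open symbols are most frequent for CYS3, MET8, MET10 and MET17.

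Across 23 alternatives MET30 passed in 21, CYS4 in 20 and SAM3 in 17, and MET22 passed in 19 of the 22 that gave it a value. MUP1 passed in 13 of 23, MET10 and MET17 in 11 of 22 each, CYS3 in 9 of 22 and MET8 in 8 of 22. Leaving out each array in turn kept the call of MET30, with differences from -1.58 to -1.47, and likewise those of MET22 and CYS4. The number of calls moved with the setting for all probes and for the 31 genes alike. Only 1 of the 31 was called with 75th percentile scaling (0.911% of all probes) and 0 with median scaling (0.591%). The gain 700 arrays alone, with 1 parent array, called 0.719% of all probes and 0 of the 31, which bears little on any gene. With gain as a block 6 were called lower and 0 higher (26% of all probes), and with the closest arrays averaged 5 and 0 (18.3%). Array weights gave 12 lower and 7 higher (48.5%). Restricting the test to probes above background throughout a strain (48% called) kept 7 of the 31, 6 of them through the parent arrays alone, and left MET10, MET17 and CYS3 untested, so it says nothing of how many rose or fell. With 75th percentile scaling MET30 was the 1 member that passed (difference -1.57, adjusted p = 0.0189).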

How the data were processed

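Cy5-labelled cRNA was made from 0.5 µg of total RNA, per the labels' protocols. Per the file headers, arrays were read at 635 nm with GenePix Pro 6.1.0.4 without normalization. The deposited files give for each spot its intensity, a score of signal to noise, and the percent of its pixels that were saturated, 0 for all 31 genes. The authors' deposited value table, also intensity (Spearman correlation with the values used here 0.981 to 1.00 per array, column medians 75.1 to 79.4), has unstated processing and served as an alternative, as log2(value + 50). Spot medians were background-corrected (normexp, offset 50, which understates changes of dim genes), taken to log2, quantile-normalized and averaged per probe (2 spots) in limma 3.58.1 (R 4.3.3). Strains were compared with lmFit and eBayes, 4 against 4, two-sided, without covariates. Gene p-values were adjusted by limma over all probes. For a gene that 1 strain did not lift above background, the fold is stated as a bound ("at least"). The steps were tested on simulated data with changes placed in brighter probes only, so that test does not cover dim genes.

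Names came from the files or, where these give only a systematic name, from a RefSeq table of assembly R64, which holds 5756 of the systematic names and not the other 500. The members and lists were chosen with earlier results of these data known. All 31 members were to be named, and of the 54 other genes those called. The p-values measure the spread between these samples. Alternatives covered background, scaling, filter, value table, gain, slide row, array weights and left-out arrays. A planned count of promoter motifs was not run. No source used here names a genome build for the array.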

Additional observations from a re-analysis of the deposited data

Results flagged for a closer look

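In 4 of 62 groups of 4 arrays, 1 array stood far from the others of its strain, where chance alone gives about 1 in 20. SUL2 stood at 6.32 on parent 8 and between 6.03 and 6.05 on the other parent arrays. MET3 stood at 5.87 on parent 8 and between 6.17 and 6.20 on the other parent arrays. SUL2 and MET3 were not above background on parent 8. MET1 stood at 7.77 on parent 2 and between 8.66 and 8.84 on the other parent arrays. MET28 stood at 6.14 on mutant 7 and between 6.70 and 6.75 on the other mutant arrays.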

How the results depend on the processing

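Among 202 values of the 9 called genes under the alternatives, none changed sign and 73 no longer passed. Among 487 values of the 22 others, 27 passed, 7 of them of MET13 and 5 of MET14. MET3 passed on gain 600 (0.28, adjusted p = 0.0191), MET2 with gain as a block (adjusted p = 0.0484) and MET4 with the spot mean (-0.43, adjusted p = 0.0119). Scaling by the 75th percentile gave 0 higher and 1 lower of the 31 genes and 0 and 1 of the 54 others, and the median of the 31 became 0.0038. Median scaling gave 0 and 0, and 0 and 1. These scalings moved the median of all probes to 0.21 and 0.15 and called 57 and 37 probes. Relative to that median MET30 lay at -1.78 in both. Keeping only probes above background throughout a strain tested 7 members, 6 through the parent alone and none of the 3 that rose, so its 0 higher members and median of -0.44 were set by the filter. It tested 21 others (1 higher, 4 lower). Members called higher numbered 0 with gain as a block and with closest arrays averaged. The gain 700 arrays alone, 2 against 1, gave 0 and 0, and 0 and 1. Array weights gave 7 and 12, and 8 and 15, with 48.5% of all probes called. Leaving out 1 array gave 0 to 3 higher and 3 to 5 lower members, with 3 lower without parent 4, and 3 to 4 higher and 6 to 10 lower others. Where no count or construction shows a cause, the cause was not tested.

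The SAM1 and SAM2 contrast turned to -0.11 under both scalings and -0.12 on gain 600 alone, and ranged from -0.066 to 0.18 with 1 array left out. The SUL1 and SUL2 contrast became 0.011 under both scalings. The signs of some uncalled genes turned. Under the 75th percentile these were MET16 (0.28), STR3 (0.0038), MUP3 (0.093), MMP1 (0.11) and CBF1 (0.29), and under median scaling MET16 (0.22), MUP3 (0.036), MMP1 (0.049) and CBF1 (0.23). On gain 600 they were SUL1 (-0.031), MET16 (0.0091), MET1 (0.042), MET6 (-0.011) and CBF1 (0.0081), and on gain 700 SUL2 (-0.12), MET5 (0.050), SAM2 (-0.048), STR2 (0.032) and MET4 (0.042). Array weights turned SUL1 (-0.019), MET16 (0.0059), MET5 (0.011), SAM1 (-0.0031) and STR2 (0.018). MET5 also turned with the spot mean (0.0077), the value table (0.0041) and gain as a block (0.0010), SUL1 with cyclic loess (-0.035) and STR3 with closest arrays averaged (0.090). With 1 array left out, STR3 ranged from -0.21 to 0.026, MET5 from -0.12 to 0.065, MUP3 from -0.21 to 0.027, MET1 from -0.33 to 0.025 and CBF1 from -0.11 to 0.018.

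No paired analysis was possible because the strains share no replicate number in the labels. Pairing by slide position was: with slide row as a block 3 members were higher and 7 lower, all 9 calls held, MET14 was added (adjusted p = 0.0313), and MET30 stood at adjusted p = 6.81e-05. Promoter motif counts were not run. Dim signal on mutants 5 and 7 and parent 8 limits most of the 31 genes.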
